A study of Mus musculus with 4 samples.

Results

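Cajal-Retzius cell genes are described here in the telencephalon, the embryonic forebrain, of mice with and without the chromatin protein CTCF. The group consists of 10 genes, named as markers of these cells by symbol and not by a cutoff on their measured values: Reln, Trp73, Lhx1, Lhx5, Calb2, Ebf2, Ebf3, Ndnf, Nhlh2 and Zic1. These genes, and the other gene lists used below, were chosen with earlier results of these data known. All 10 were found among the 48795 rows of the table, and all 10 were among the 22158 genes that passed the filter on low counts. The tissue came from C57BL/6 embryos at embryonic day 14. Both controls carried a floxed Ctcf gene, in which loxP sites flank the part to be removed. Both Ctcf-null samples carried the same floxed gene together with NestinCre, a Cre recombinase that is driven by Nestin sequences and acts in neural progenitors and the cells they give rise to. There were 2 libraries of each genotype, numbered 1 and 2, and the submitters speak of pairs. Whether the cells that express the 10 genes had lost Ctcf was not measured, and the sources used here do not say whether a library came from 1 embryo or from several. The p-values of fits within pairs therefore rest on how far the differences in the 2 pairs disagree. In these fits each gene's spread is drawn toward that of other genes of similar level. That spread may be technical.

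Cajal-Retzius cells are among the earliest neurons of the cortex. They arise at the edges of the cortical sheet, above all at the cortical hem, and migrate over its surface to lie in the marginal zone. There they secrete Reelin, the product of Reln, which binds the receptors VLDLR and APOER2 (gene Lrp8) on migrating neurons and leads to phosphorylation of the adaptor DAB1, a step needed for the layering of the cortex. Trp73, a relative of p53, marks the cells that come from the hem.

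The libraries held 25519331 to 43812558 reads. The deleted gene, Ctcf, had normalized read counts of 437 (control 1) and 1133 (control 2), while its level was 38.9 in the first Ctcf-null library and 62.0 in the other. Markers of the labelled tissue were present in every library. The cortical gene Emx1 was at 134 (control 1) and 2269 (control 2) normalized read counts, and at 96.9 (Ctcf-null 1) and 1293 (Ctcf-null 2). It was thus far lower in pair 1 than in pair 2. Of 12 genes listed for the telencephalon 8 fell and 0 rose, with a median log2 fold change of -0.35. The pairs differed from each other far more than the genotypes did, with a median absolute log2 difference of 0.84 against 0.20 over all genes tested. Genotypes were therefore compared within pairs. Fold changes are log2 differences of (normalized read count + 1), Ctcf-null against control, from limma with the pair as a block. A gene is said to have risen or fallen where its p, adjusted over all 22158 genes, was under 0.05. Over all genes tested the median log2 fold change was -0.07.

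Reln rose and Nhlh2 fell, and the other 8 did not pass, so that 2 of 10 were called, against 13.7% of all genes tested in either direction. Over all genes, 3.67% rose and 10.1% fell. The 10 log2 fold changes ran from -0.43 to 0.26, with a median of 0.09. Their median absolute value was 0.18, against 0.20 over all genes tested. The median was 0.22 in pair 1 and -0.12 in pair 2, where those of all genes were -0.06 and -0.08. When whole reads were tested in edgeR by quasi-likelihood, with TMM factors and the same block, Reln and Nhlh2 were also called (2 of 10, against 11.9% of all genes), whereas DESeq2 with the block called 0 of 10, with 2 at an unadjusted p under 0.05. Without the block 0 of 10 passed in limma, and 0 had an unadjusted p under 0.05. Levels in bulk tissue cannot tell fewer cells of a type from less RNA per cell.

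**Figure D1:**
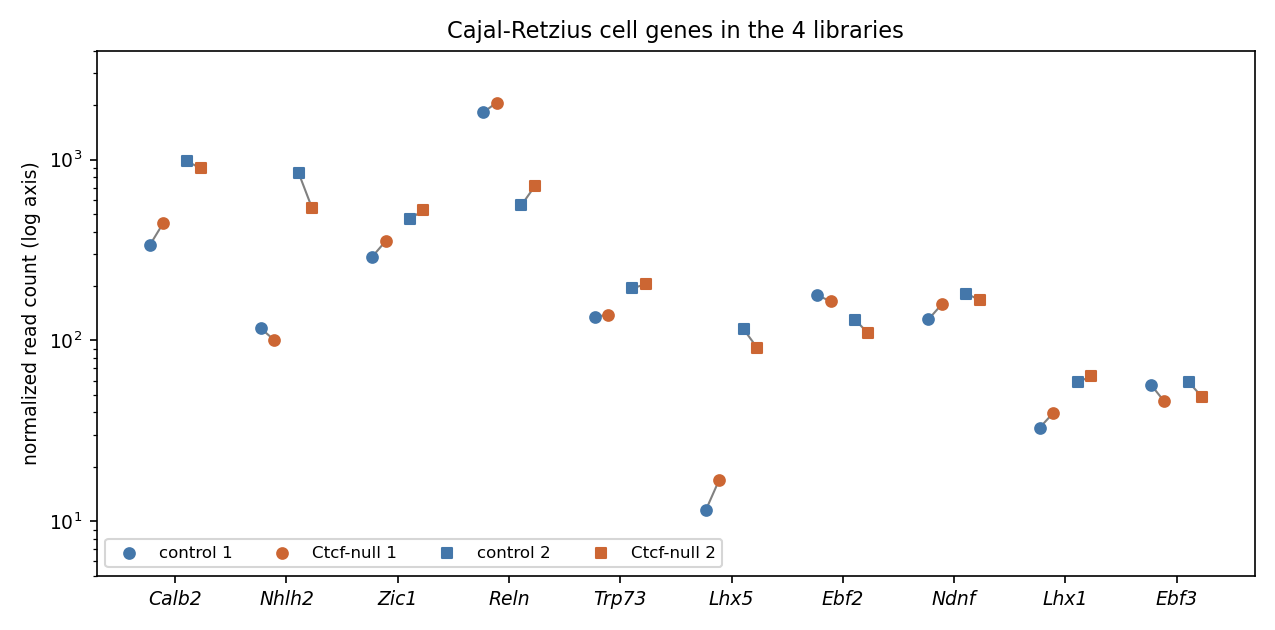
Normalized read count (log axis) of each Cajal-Retzius cell gene in the 4 libraries, with controls in blue, Ctcf-null in orange, circles for pair 1 and squares for pair 2, and a line joining the libraries of a pair. For Reln both circles lie above both squares, for Nhlh2 and Lhx5 both squares lie far above both circles, and the lines within pairs are short beside these gaps.

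Reln (ENSMUSG00000042453.14, chromosome 5, 21884454 to 22344702, minus strand) is the gene by which these cells act on the cortex. It was at 1828 normalized read counts in control 1 and 558 in control 2. The Ctcf-null libraries of the same pairs were at 2068 and 711. The genotypes overlapped, but within each pair the Ctcf-null library was the higher. Reln rose 1.20-fold (log2 fold change 0.26, SE 0.08, 95% interval 0.09 to 0.44, limma adjusted p = 0.044), with 0.18 in pair 1 and 0.35 in pair 2. Counting error was smaller than either difference. From the reads alone, the exact 95% interval of the ratio was 1.07 to 1.20 in pair 1 and 1.12 to 1.44 in pair 2. These intervals cover counting error only, as PCR copies are not independent molecules. The call did not pass with a pseudocount of 0.5 (limma adjusted p = 0.055), in edgeR with the authors' size factors (0.052) or in DESeq2 (0.31). Over the 9 other fits with the block the adjusted p ran from 0.0078 to 0.31, and 6 of them passed.

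Nhlh2 (ENSMUSG00000048540.8, chromosome 3, 102010076 to 102015492, plus strand) encodes a basic helix-loop-helix transcription factor of young neurons. Its normalized read count was 117 and 841 in the controls and 100.4 and 539 in the Ctcf-null libraries. Here too the genotypes overlapped, and within each pair the Ctcf-null library was the lower. Nhlh2 fell 1.34-fold (log2 fold change -0.43, SE 0.13, 95% interval -0.70 to -0.15, limma adjusted p = 0.037), with -0.21 in pair 1 and -0.64 in pair 2. In pair 1 the ratio of 0.86 had an exact 95% counting interval of 0.675 to 1.10, so that a difference was not detectable at that depth. In pair 2 the ratio was 0.64, with an interval of 0.57 to 0.72. The fall did not pass in limma after TMM scaling (adjusted p = 0.084) or upper-quartile scaling (0.14), nor in DESeq2 (0.33). It passed in 6 of 9 other fits with the block, whose adjusted p ran from 0.013 to 0.33.

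The start regions of these genes differ in base composition, and they are shown because CTCF binds DNA directly. The sequences are RefSeq's for GRCm38.p6, the assembly also called mm10, from 250 bases before to 50 bases after the start. Windows were found for 6 of the 10 genes. Capitals mark matches on either strand to AGGNGGC, which are core letters of the CTCF motif.

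Reln (chr5:22344656-22344955, minus strand): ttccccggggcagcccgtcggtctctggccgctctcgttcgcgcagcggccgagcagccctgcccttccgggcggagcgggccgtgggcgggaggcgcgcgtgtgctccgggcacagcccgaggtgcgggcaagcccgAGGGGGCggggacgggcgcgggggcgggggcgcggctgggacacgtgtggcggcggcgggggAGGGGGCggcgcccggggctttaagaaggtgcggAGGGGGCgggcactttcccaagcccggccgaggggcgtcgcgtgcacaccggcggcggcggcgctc

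Nhlh2 (chr3:102009895-102010194, plus strand): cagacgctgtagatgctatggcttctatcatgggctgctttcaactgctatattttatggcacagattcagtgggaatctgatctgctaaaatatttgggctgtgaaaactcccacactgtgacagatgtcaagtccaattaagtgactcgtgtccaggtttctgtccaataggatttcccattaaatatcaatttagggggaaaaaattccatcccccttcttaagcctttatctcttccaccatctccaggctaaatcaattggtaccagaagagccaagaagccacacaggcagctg

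Zic1 (chr9:91365719-91366018, minus strand): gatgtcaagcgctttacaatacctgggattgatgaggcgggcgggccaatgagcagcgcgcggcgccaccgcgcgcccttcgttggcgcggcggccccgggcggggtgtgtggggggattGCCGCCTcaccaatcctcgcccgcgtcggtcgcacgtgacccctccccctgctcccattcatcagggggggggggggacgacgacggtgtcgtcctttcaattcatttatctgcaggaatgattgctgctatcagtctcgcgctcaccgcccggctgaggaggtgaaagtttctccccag

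The Reln window held 3 matches and was 80.7% G and C, the Zic1 window held 1 match at 65.3%, and the Nhlh2 window held 0 at 43.3%. The 6 genes had 7 windows in all, as Trp73 has a pair of them, and 5 of the 7 windows held at least 1 match. Among all 32851 RefSeq windows of this length 29.4% did, and their median G and C content was 52.7%. The 5 windows with a match were 65.3% to 80.7% G and C, and those without were at 57.7% and 43.3%. The letters sought are mostly G and C, so these shares do not compare windows of like composition. A match describes letters only, and binding was not measured.

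Trp73 (ENSMUSG00000029026.16, chromosome 4, 154056253 to 154140208) did not pass. Its normalized read count was 135 and 194 in the controls and 139 and 205 in the Ctcf-null libraries. Both pairs were nearly level, at 0.04 and 0.08. The log2 fold change was 0.06 (95% interval -0.25 to 0.37, limma adjusted p = 0.85), so that a change of up to 1.29-fold upward or to 0.84 of the control level lay within the interval. Its relatives did not pass either. Trp53 was at 0.07 and Trp63, at only 21.3 to 36.8 normalized read counts, at 0.13.

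Lhx1 and Lhx5 encode LIM-homeodomain transcription factors of early-born neurons, and both had few reads. Lhx1 (chromosome 11, 84518284 to 84525535) was at 32.9 and 58.8 normalized read counts in the controls and 39.6 and 63.2 in the Ctcf-null libraries. It was higher in both pairs, but not beyond error (log2 fold change 0.18, 95% interval -0.33 to 0.69, limma adjusted p = 0.69). Lhx5 (chromosome 5, 120431699 to 120441223) was at 11.6 and 115 in the controls and 17.0 and 91.1 in the Ctcf-null libraries. The value of control 1 rests on 13 reads. The pairs went in opposite directions, at 0.52 and -0.33, and the log2 fold change of 0.09 (95% interval -0.50 to 0.68, limma adjusted p = 0.88) changed sign in edgeR, to -0.07. An antisense transcript on the opposite strand of Lhx5, Gm27199, shares 69 exon bases with it. Its normalized read counts were above those of Lhx5 in pair 1 and near them in pair 2, at 36.5 (control 1), 113.8 (control 2), 42.4 (Ctcf-null 1) and 104.5 (Ctcf-null 2). No strand information is given in the sources used here, so reads in the shared bases cannot be assigned to either.

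Among 15 tested relatives of the members 1 rose and 6 fell, and LIM-homeodomain genes were among those that fell. Lhx2, a selector of cortical identity, fell by 0.65 on the log2 scale (SE 0.08), and Lhx6, of interneurons from the medial ganglionic eminence, fell by 1.26 (SE 0.11). Lhx1 and Lhx5 are also used outside the telencephalon, and 7 of 16 genes listed for diencephalon and midbrain were abundant enough to test. Of these 7, 2 rose, among them Pou4f1, by 0.89, and 1 fell (Lhx9, by 0.41). The thalamic genes Gbx2, at 1.05, and Tcf7l2, at 0.24, did not pass (limma adjusted p = 0.052 and 0.084). The summed level of the list was 1452 and 1432 normalized read counts in the controls and 1460 and 1635 in the Ctcf-null libraries. None of the 16 was at 0 in all libraries. Their part in the values of Lhx1 and Lhx5 was not tested.

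Calb2 (chromosome 8, 110137502 to 110168210) encodes calretinin, a calcium-binding protein of Cajal-Retzius cells and of some interneurons. It was at 335 and 977 normalized read counts in the controls and 443 and 894 in the Ctcf-null libraries. In pair 1 it was higher by 0.40 on the log2 scale, and in pair 2 it was lower, at -0.13. The increase in pair 1 exceeded counting error (ratio 1.32, exact 95% interval 1.16 to 1.51), whereas the interval in pair 2 included no difference (0.83 to 1.01). The fitted log2 fold change was 0.14 (95% interval -0.10 to 0.37, limma adjusted p = 0.48). Calb1, which encodes the related calbindin, fell by 0.88 (SE 0.11), from 278 and 1252 to 168 and 610.

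Ndnf (chromosome 6, 65671590 to 65712326) encodes a secreted neurotrophic factor. Its normalized read count was 131 and 181 in the controls and 158 and 168 in the Ctcf-null libraries. As with Calb2, pair 1 was higher (0.27) and pair 2 lower (-0.11), and the fitted value was 0.08 (95% interval -0.24 to 0.41, limma adjusted p = 0.79). Thus 3 members, Lhx5, Calb2 and Ndnf, went in opposite directions in the pairs, with pair 1 the higher each time. The other 7 had the same sign in both pairs, 4 of them higher and 3 lower, while 67.4% of all genes tested had the same sign.

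**Figure D2:**
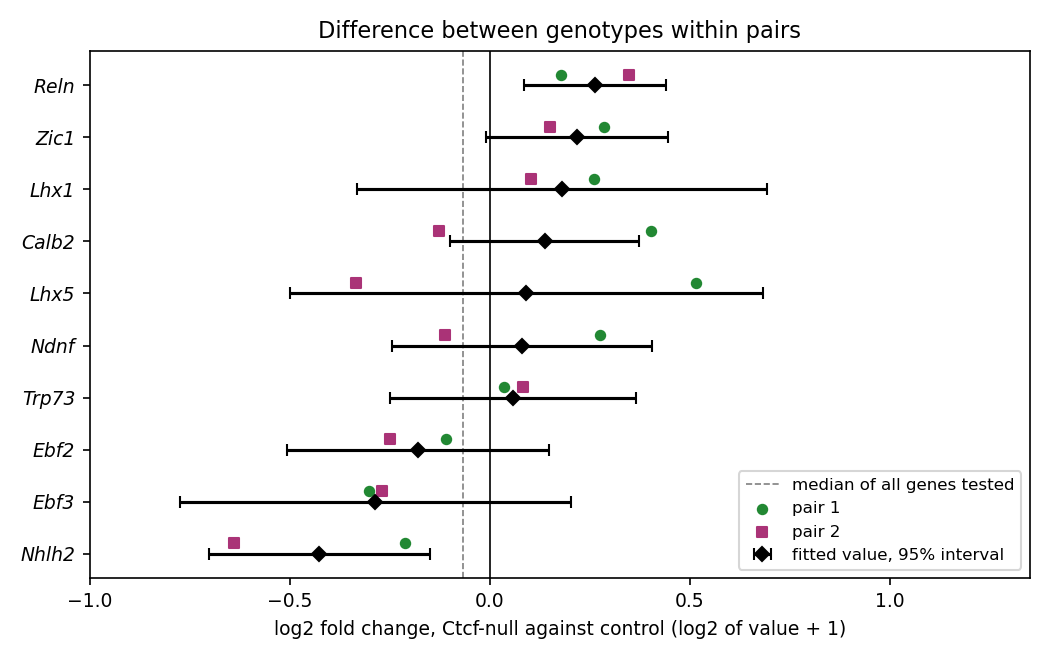
Log2 fold change of each Cajal-Retzius cell gene, with the fitted value and its 95% interval (diamonds and bars) the value in each pair (circles and squares) and a dashed line at the median of all genes tested. Only the intervals of Reln and Nhlh2 lie wholly on 1 side of 0, and Lhx5, Calb2 and Ndnf have 1 pair on each side.

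Ebf2 and Ebf3 encode EBF transcription factors, which act in the differentiation of several kinds of neuron. Ebf2 (chromosome 14, 67233292 to 67430918) was at 178 and 130.1 normalized read counts in the controls and 165 and 109 in the Ctcf-null libraries. It was lower in both pairs, at -0.11 and -0.25, and did not pass (log2 fold change -0.18, 95% interval -0.51 to 0.15, limma adjusted p = 0.51). Ebf3 (chromosome 7, 137193673 to 137314445) was at 56.9 and 58.8 in the controls and 46.0 and 48.6 in the Ctcf-null libraries. It was the single member whose genotypes did not overlap, with both Ctcf-null values below both controls. Over all genes tested, 7.64% lay wholly below the controls and 14.1% wholly below or above them. The log2 fold change of Ebf3 was -0.29 (95% interval -0.77 to 0.20, limma adjusted p = 0.47), and counts of 40 to 65 reads per library left counting intervals that included no difference in both pairs. Of their family, Ebf1, also a gene of striatal neurons, fell by 0.55 (SE 0.08) from 1297 and 1717 to 879 and 1183, and Ebf4 was at 0.07 and did not pass.

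Zic1 (chromosome 9, 91358058 to 91365810, minus strand) encodes a zinc finger protein of the septum, the hem and the meninges as well as of Cajal-Retzius cells. It was at 290 and 472 normalized read counts in the controls and 354 and 524 in the Ctcf-null libraries. It was higher in both pairs, at 0.29 and 0.15, but did not pass (log2 fold change 0.22, 95% interval -0.01 to 0.45, limma adjusted p = 0.21). Its neighbour Zic4 lies head to head with it on the opposite strand and shares 60 exon bases with it. Zic4, at 1074 and 867 in the controls and 1281 and 1090 in the Ctcf-null libraries, rose by 0.29 (SE 0.08, limma adjusted p = 0.024) and passed in 9 of 10 fits with the block. In Zic4 too the Ctcf-null library was the higher in both pairs, as it was in Zic2 and Zic5. Zic2 was at 0.22 and Zic5 at 0.25, and neither passed (limma adjusted p = 0.62 and 0.14). No fit with the block turned the direction of Zic1, Zic2, Zic4 or Zic5.

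Nhlh1, the close relative of Nhlh2, fell by 1.27 (SE 0.20), from 117 and 220 normalized read counts to 36.1 and 120, and passed in all 10 fits with the block. Nhlh2 passed in 7 of these 10. In the Reelin pathway downstream of Reln, 0 of 26 genes rose and 4 fell, with a median log2 fold change of -0.10, where 10.1% of all genes fell and their median was -0.07. Of the receptors, Lrp8 was at 2496 and 1506 in the controls and 2080 and 1315 in the Ctcf-null libraries. It fell by 0.23 (SE 0.08, limma adjusted p = 0.048), and passed in 4 of 10 fits with the block. Vldlr was at 660 and 779 against 662 and 752, a log2 fold change of -0.02 (95% interval -0.22 to 0.17). Dab1, the adaptor gene, was at 1439 and 2261 against 1317 and 2060, and did not pass (log2 fold change -0.13, limma adjusted p = 0.28). The others that fell were the small GTPase gene Rap1b, by 0.50, Pafah1b3, which encodes a subunit of an acetylhydrolase bound to LIS1, by 0.30, and Notch1, by 0.33 (limma adjusted p = 0.046). In edgeR with TMM factors 2 of the 26 fell.

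Further genes found in Cajal-Retzius cells, most of which other cells express as well, went both ways, with 2 of 12 rising and 4 falling (median log2 fold change -0.15). Ackr3, a scavenging receptor of the chemokine CXCL12, fell by 1.17 (SE 0.09), from 1244 and 1781 normalized read counts to 618 and 711. Cxcr4, the signalling receptor of CXCL12, fell by 0.79 (SE 0.16), from 212 and 166 to 142 and 82.6. Ebf1 and Nhlh1, described above, completed the genes that fell. Thsd7b rose by 0.61 (SE 0.14), from 227 and 95.1 to 330 and 153.

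For the cortical hem, where many of these cells arise, 2 of 16 genes tested rose and 1 fell, with a median of 0.10, beside 13.7% of all genes called in either direction. The signalling genes Bmp7 and Wnt5a rose by 0.46 (SE 0.11) and 0.41 (SE 0.11), while Rspo3, an enhancer of WNT signalling, fell by 0.61 (SE 0.13), from 178 and 1492 to 143 and 795. Wnt3a, the defining hem signal, was at 36.5 and 105 against 27.6 and 91.1 and did not pass (limma adjusted p = 0.44), nor did Wnt2b (0.47). In the list for the septum and the pallial-subpallial border 0 of 10 rose or fell. Its first genes were close to the limit of detection, with Dbx1 at 2.67 to 15.0 and Fgf8 at 0 to 14.6 normalized read counts.

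The cells around the marginal zone gave the following background. In the meninges list 0 of 12 rose or fell, with summed levels of 6926 and 14400 normalized read counts in the controls and 6678 and 14627 in the Ctcf-null libraries and with Foxc1 at -0.17. Among genes of blood vessels 0 of 12 rose and Pecam1 fell by 0.31, with sums of 3442 and 6088 against 2996 and 5542. Pdgfrb and Rgs5, of pericytes, were at -0.15 and -0.25 and did not pass. For the choroid plexus, which also comes from the hem region, 3 of 10 rose and 0 fell, with sums of 74052 and 25622 against 96822 and 37038. The genes that rose were Sostdc1 (by 0.55), Otx2 (by 0.48) and Ttr (by 0.47). Ttr made up most of the choroid plexus sum, at 72063.5 in control 1. Among red blood cell genes 0 of 8 rose or fell. Hba-a1 was at -0.24, with -0.59 in pair 1 and 0.11 in pair 2. The sums were 1344410 and 576057 against 924910 and 626757, so that the Ctcf-null library was lower in pair 1 and higher in pair 2. No gene of these 4 lists was at 0 in all libraries.

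Genes of other neurons, some of which share Reln or Calb2 with Cajal-Retzius cells, fell in part. In the interneuron list 6 of 12 fell and 0 rose, with sums of 7225 and 22719 normalized read counts in the controls and 4459 and 11167 in the Ctcf-null libraries, and a median of -0.46. The log2 fold change of Sst was -3.17, of Npy -2.10, of Lhx6 -1.26 and of Gad2 -0.70, and all of these passed, whereas Gad1 was at 0.05 and did not pass. In the list for excitatory cortical neurons 6 of 12 fell and 0 rose, with sums of 48048 and 50946 against 38639 and 40915, and a median of -0.31. Bcl11b fell by 1.18, Slc17a6 by 0.84 and Fezf2 by 0.71, while Tbr1, which Cajal-Retzius cells also express, was at -0.21 and did not pass (limma adjusted p = 0.13). In comparison, the summed level of the 10 Cajal-Retzius genes was 3115 and 3585 in the controls and 3530 and 3353 in the Ctcf-null libraries. Such sums follow the most abundant genes. In control 1, Neurod6 alone was at 35714.7 in the excitatory list, and Reln at 1828 among the Cajal-Retzius genes. The part of these other cells in the values of Reln, Calb2 and Ndnf was not tested.

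**Figure D3:**
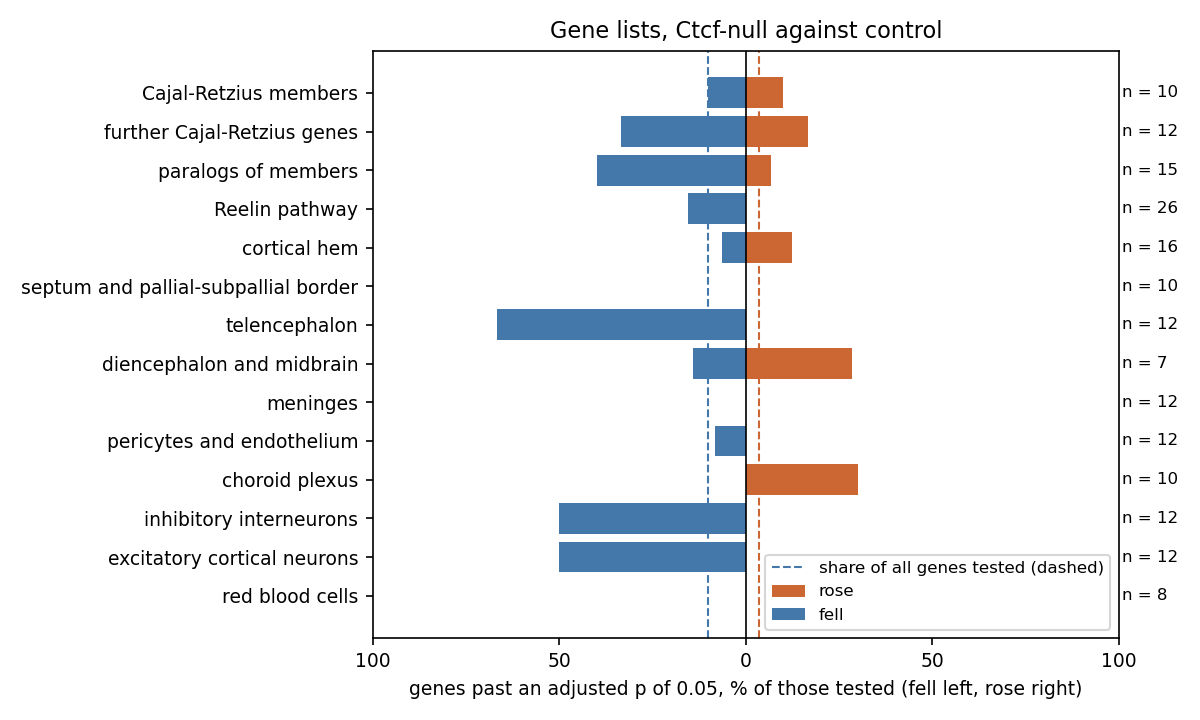
Percent of the tested genes in each list that rose (right, orange) or fell (left, blue) in Ctcf-null telencephalon, with dashed lines at the shares of all genes tested and n the number of genes tested. The Cajal-Retzius genes had 1 of 10 on each side, whereas 6 of 12 interneuron genes and 6 of 12 excitatory neuron genes fell. Of the further Cajal-Retzius genes 2 of 12 rose and 4 of 12 fell, and of the meninges genes 0 of 12 did either.

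The pair mattered more than the genotype for 9 of the 10 genes, with Ebf3 as the exception. The median absolute log2 difference of the members was 0.69 between pairs and 0.18 between genotypes. Over all genes tested these were 0.84 and 0.20, so that a larger difference between pairs was not particular to the members. Reln was 3.28-fold higher in control 1 than in control 2, and 2.91-fold higher in Ctcf-null 1 than in Ctcf-null 2. Nhlh2 had the opposite order and was 7.21-fold higher in control 2 and 5.37-fold higher in Ctcf-null 2. Lhx5 did the same, by 9.95-fold and 5.37-fold. In all, 8 members were higher in pair 2 and 2, Reln and Ebf2, were lower. Reln therefore made up more of the summed level in pair 1. Without it the sum was 1287 and 1462 in control 1 and Ctcf-null 1, against 3027 and 2642 in control 2 and Ctcf-null 2.

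Both differences varied between classes of annotated exon length. Reln has the longest annotated exons of the members, with 23738 bases in a gene of 460249 bases, and Calb2 the shortest, with 1743. These lengths merge the exons of all annotated transcripts of a gene, of which Reln has 15. Among all genes tested, the median difference of pair 2 from pair 1 was -0.81 for the 117 genes with exons of 20 kb or more, of which 87.2% were lower in pair 2. It was -0.45 for 10 to 20 kb, 0.02 for 5 to 10 kb, 0.38 for the 8787 genes of 2 to 5 kb and -0.19 for those under 2 kb, so that it did not follow length throughout. The median log2 fold change between genotypes rose in steps with length, from -0.13 in the 6389 genes of the shortest class to 0.06 in the longest. In the longest class 14 of 117 genes rose and 4 fell, while in the shortest 131 rose and 727 fell. The log2 fold change of Reln, 0.26, lay above the median of its class. The part of length in the values of Reln was not tested.

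**Figure D4:**
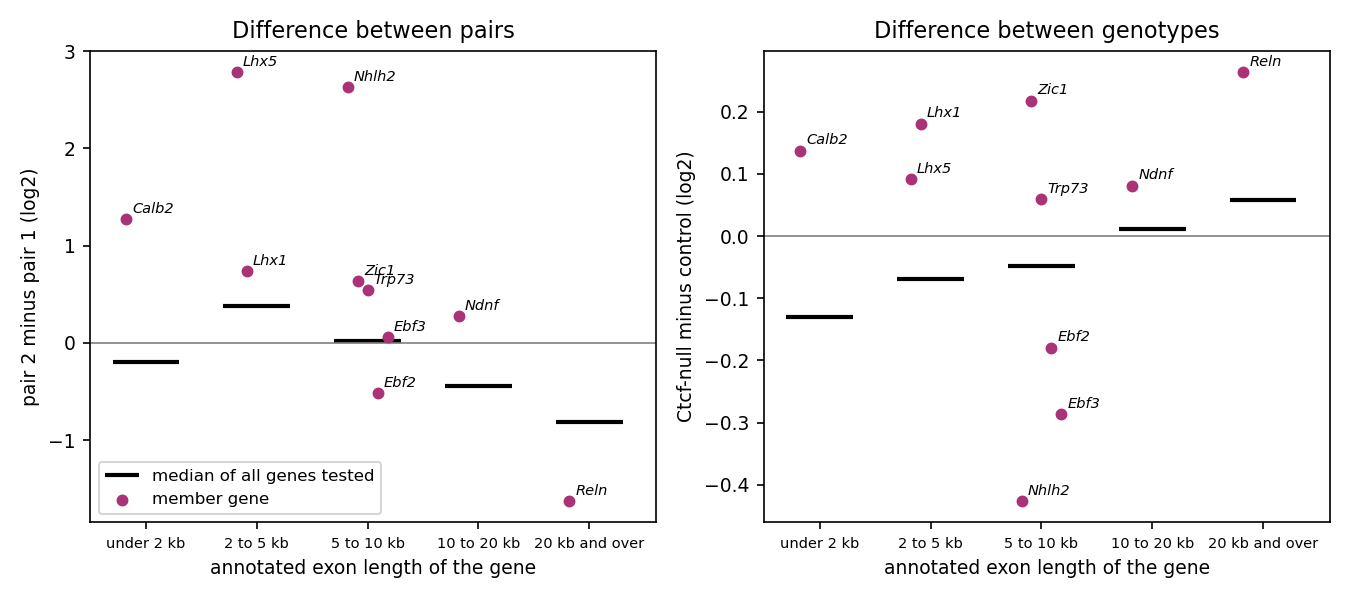
Log2 difference of pair 2 from pair 1 (left) and of Ctcf-null from control (right) against annotated exon length in 5 classes, with bars for the medians of all genes tested and points for the Cajal-Retzius cell genes. The genotype medians rise from -0.13 to 0.06 with length, and Reln, in the longest class, is lowest of the members on the left and highest on the right.

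The genes whose values over the 4 libraries were most like those of Reln, by Euclidean distance of centred log2 values and among genes with a mean of at least 100 normalized read counts, were Mycbp2, Gm7204, Adar, B830012L14Rik and C230085N15Rik. Mycbp2, a ubiquitin ligase gene of growing axons, was at 3118 and 966 in the controls and 3574 and 1193 in the Ctcf-null libraries. In each of them, as in Reln, pair 1 was the higher, which follows from picking them by likeness to Reln over these same libraries. Of the 6 other members abundant enough to be compared, Ebf2 was nearest to Reln, at rank 2022 of 12548, and Nhlh2 the farthest, at rank 11649.

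Per kilobase of annotated exon, merged over all transcripts, Calb2 was the most abundant member. Its mean over the 4 libraries was 380 normalized read counts per kilobase. Nhlh2 (73.7), Zic1 (72.0) and Reln (54.4) followed, and their order was not the same in the pairs, with Reln at 77.0 in control 1 and 23.5 in control 2 against 21.5 and 155 for Nhlh2. Trp73 (30.4), Lhx5 (21.8), Ebf2 (21.0), Ndnf (15.8) and Lhx1 (11.9) came next, and Ebf3 had the lowest mean, at 5.70, although in control 1 Lhx5, at 4.30, lay below Ebf3, at 6.17. From Nhlh2 to Lhx1 the ranges over the 4 libraries of all neighbours in this order overlapped, whereas Calb2 lay wholly above Nhlh2 and Ebf3 wholly below Lhx1.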

How the data were processed

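The authors deposited 1 table with a normalized read count per gene and library, a signal that is not divided by gene length, per the file headers. It also holds their log2 fold changes per pair, which the deposited columns give as log2 values and which were not used here. STAR 2.5.3, DESeq2 and mm10 are named in the submitters' processing notes; no source used here names the counter or the annotation. The values were whole multiples of 1 step per library, and so were not divided by gene length. Whole reads were recovered for at least 99.97% of nonzero values (tolerance 0.005), 25519331 to 43812558 reads per library.

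Genes left by filterByExpr in edgeR 4.0.16 were tested with limma 3.58.1 (R 4.3.3, mean-variance trend) on log2(value + 1), which understates changes of low genes, with Benjamini-Hochberg adjustment, two-sided. The replicate number was a block because the design text speaks of pairs. Libraries with the same number deviated together from the group means (correlation 0.92). With the block, each gene's variance in limma had 19.1 degrees of freedom, most of them borrowed from other genes. No libraries of a genotype were alike within sampling noise (chi-square of at least 402 per degree of freedom). edgeR and DESeq2 1.42.0 on recovered reads, other scalings, pseudocounts, filters and left-out libraries were alternatives. The fits were tested on simulated data. Of genes changed 1.5-fold, limma with the block recovered 59.7%, edgeR 61.2% and DESeq2 37.3%. Changes as small as those of Reln and Nhlh2 were not simulated.

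The members and all gene lists were chosen with earlier results of these data known. Named genes are all members, Ctcf, the first 2 genes of each list, its 4 largest changes past the threshold with the same sign in both pairs, the Reelin receptors and adaptor, paralogs, and the 5 genes nearest to Reln; some genes under this rule are not reported here. Positions and exon lengths (all annotated exons merged) are from GENCODE M21 on mm10, which held 48349 of the 48795 identifiers.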

Additional observations from a re-analysis of the deposited data

How the results depend on the processing

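Without the replicate block, limma called 0 genes (170 at an unadjusted p under 0.05), 0 Cajal-Retzius genes and 0 of the other listed genes, against 3041, 2 and 40 with it. DESeq2 with the block called 832, 0 and 17. The count of Cajal-Retzius genes was 1 in edgeR with the authors' size factors, after TMM scaling in limma, after upper-quartile scaling and with a pseudocount of 0.5. It was 2 in edgeR with TMM factors, with a pseudocount of 5, with no filter and with the stricter filter. The share of rises among all calls was 26.7%, but 41.6% after TMM and 57.7% after upper-quartile scaling, which moved the median log2 fold change of all genes from -0.07 to -0.01 and 0.04. Lhx5 changed sign in edgeR, to -0.0695 with TMM and -0.12 with the authors' size factors. A block with 3 libraries leaves no residual degrees of freedom, so each library was left out without the block, the lone library being assumed to vary like the other group. These fits called 0 to 2 genes, 0 Cajal-Retzius genes and 0 listed genes, and the pair difference then enters the fold change. It ran from -0.59 to 1.12 for Reln, -1.85 to 0.99 for Nhlh2, -0.22 to 0.34 for Trp73, -0.23 to 0.59 for Lhx1, -1.51 to 1.70 for Lhx5, -0.63 to 0.91 for Calb2, -0.47 to 0.11 for Ebf2, -0.15 to 0.32 for Ndnf, -0.13 to 0.57 for Zic1 and, with its direction kept, -0.33 to -0.25 for Ebf3. The cause of the other shifts was not tested. Depth limits Lhx5, Lhx1 and Ebf3 most, with 13 to 92 reads per library.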

Other observations

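Of the 20 nearest tested protein-coding genes that do not overlap a member, 1 on each side of each Cajal-Retzius gene, 0 rose and 2 fell, near the 10.1% of all genes that fell. Mrm1, a mitochondrial RNA methyltransferase gene 287526 bases from Lhx1, fell from 56.0 and 256 normalized read counts to 38.9 and 152 (log2 fold change -0.63, limma adjusted p = 0.026). Cdca2, a cell division gene 245413 bases from Ebf2, fell by 0.26 (limma adjusted p = 0.043). Orc5 and Slc26a5, beside Reln, were at -0.16 and -0.47 and did not pass, nor did Slc22a15 and Vangl1 beside Nhlh2, at 0.15 and 0.22.

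Within the Reln gene, the pseudogene Dnaja1-ps lies on the same strand and shares 0 bases with Reln exons. It was at 42.7 and 11.3 normalized read counts in the controls and 43.8 and 10.9 in the Ctcf-null libraries, so that it was higher in pair 1 as Reln was, with a log2 difference between genotypes of 0.04 in pair 1 and -0.04 in pair 2. The antisense transcript Gm16110, also without shared exon bases, was at 10.7 and 7.50 against 24.0 and 10.9 and did not pass (log2 fold change 0.80, limma adjusted p = 0.25). Another antisense transcript, Gm10475, shares 246 exon bases with Reln, and reads in these bases cannot be assigned to either. It was at 26.7 and 12.5 in the controls and 23.3 and 10.9 in the Ctcf-null libraries. Gm10475 did not pass (log2 fold change -0.18, limma adjusted p = 0.81).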
